A study of Ovis aries with 24 samples.

Results

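CD86, CLEC7A, CYBB, CXCR4 and GNLY, 5 genes associated with macrophages and lymphocytes, were followed in sheep, in the ductus arteriosus and in the ascending aorta. Every array probe whose gene name or description named one of them was taken, which gave 12 of 15008 probes and 5 of the 845 gene symbols that could be assigned. CD86 had 2 probes, CLEC7A 1, CXCR4 2, CYBB 3 and GNLY 4; the probes of CXCR4 carried the older name NPY3R. The comparisons address whether leukocyte content differed between the vessels and between stages.

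Total RNA of each vessel was hybridised to single-colour arrays, 1 sample per array. Preterm fetuses were at 97 days of gestation, near-term fetuses at 136 days (sample titles give 100 and 140) and newborn lambs were 12 hours old, with term at 145 days. Each of the 6 groups of vessel and stage held 4 arrays, from 4 animals per group according to the labels, which name no treatment. Whether vessels of equal number belong to 1 animal is not stated in the labels, and the aorta was a segment adjacent to the ductus.

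The ductus arteriosus joins the pulmonary artery to the aorta in the fetus and closes after birth. Macrophages and other antigen-presenting cells carry CD86, a ligand that binds CD28 and CTLA4 on T lymphocytes, and CLEC7A (dectin-1), a receptor for beta-glucans. CYBB is the catalytic subunit of the phagocyte NADPH oxidase, which makes superoxide and needs CYBA as its membrane partner. CXCR4 is the receptor of the chemokine CXCL12 on lymphocytes and other leukocytes, and endothelial cells can express it as well. GNLY (granulysin) is an antimicrobial protein of the granules of cytotoxic T lymphocytes and natural killer cells, known mainly from human cells.

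Levels are log2 processed signals with the 75th percentile of the same array subtracted, so a level of 0 equals that percentile. The percentile itself ran from 321.4 to 1141 signal units, and 66.2% to 94.4% of spots per array were well above background. The smooth muscle genes CNN1 and MYLK were bright in both vessels: their summed signal lay between 44.3 and 199 times the 75th percentile over the 24 arrays. The arrays differed in the detection limit that the scanner software derived from spike-in controls. The limit was above 1.5 on 3 of 4 preterm aorta, 3 of 4 near-term aorta, 2 of 4 newborn aorta, 2 of 4 preterm ductus, 2 of 4 near-term ductus and 0 of 4 newborn ductus arrays, and the first principal component (65.6% of the variance) correlated with it at r = 0.958 over the 24 arrays. Each stage filled its own slide and each vessel its own slide column, so stage cannot be told apart from slide, nor vessel from column.

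In the newborn, CXCR4 and CD86 were above their aortic levels in the ductus, and CLEC7A was lower in the newborn than in the near-term ductus. These were the only calls among the brightest probes of the 5 genes in the 9 comparisons, where a call is a Benjamini-Hochberg adjusted p under 0.05 in limma over 13993 tested probes. In the newborn ductus against aorta, 2 of 5 genes were called, beside 10.4% of all tested probes (4.87% higher and 5.5% lower, 681 and 769 probes). With median centring of the arrays this split was 550 higher and 284 lower. Between the near-term and the newborn ductus 1 of 5 was called, beside 11% of all tested probes (4.16% higher and 6.85% lower, 582 and 959 probes, against 750 and 616 with quantile scaling and 601 and 412 with median centring). For bulk tissue, fewer cells of a type and less RNA per cell cannot be told apart.

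No gene of the 5 was called in the other 7 comparisons. The background shares were 0.7% for the preterm and 1.15% for the near-term ductus against aorta. They were 0.3% and 0.486% between preterm and near term in the ductus and the aorta, and 6.37% between near term and newborn in the aorta. For the change at birth in the ductus minus that in the aorta the share was 0.407%, and for the same difference between preterm and near term it was 0%. At an unadjusted limma p under 0.05, 1 of 5 genes passed in the preterm and 1 in the near-term ductus against aorta. Of the 13993 tested probes, 1567 and 1108 passed there. Between preterm and near term 2 genes passed in each vessel, beside 1581 probes in the ductus and 1466 in the aorta. Between near term and newborn in the aorta 2 genes passed, beside 2789 probes. For the difference at birth 2 genes and 1118 probes passed, and for the difference before it 0 genes and 223 probes. Between the newborn vessels and across birth in the ductus 4 of 5 genes passed in each, beside 4097 and 4817 probes. The median over all tested probes was -0.30 between the newborn vessels (ductus minus aorta) and -0.32 across birth in the ductus on the log2 scale, and the differences of the 5 genes lie beside these medians; with quantile scaling the medians were -0.05 and -0.03.

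**Figure D1:**
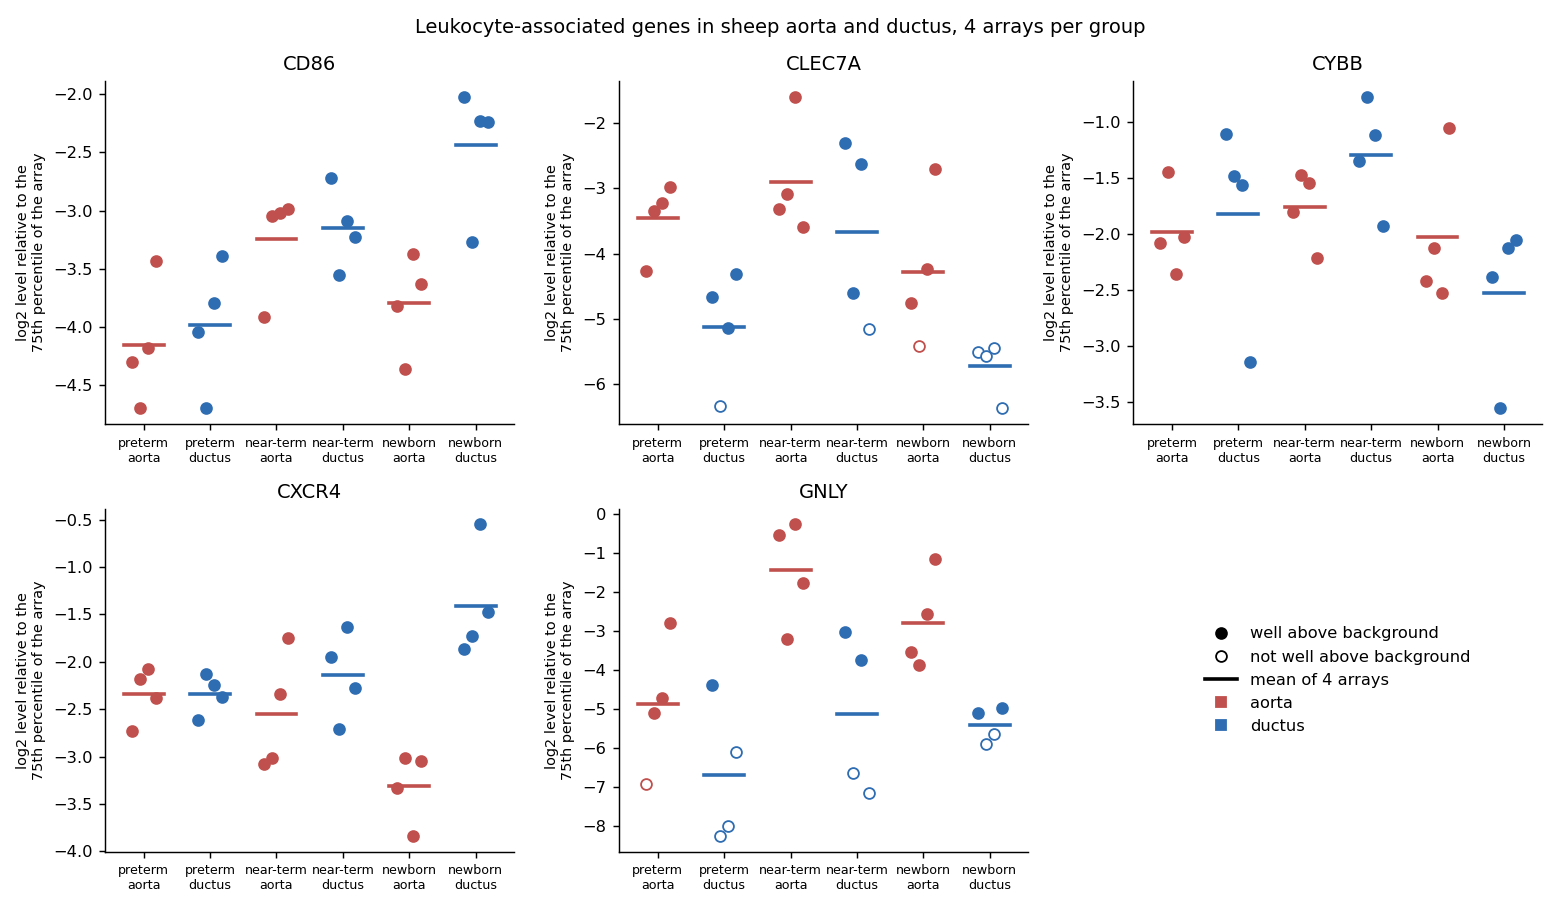
Log2 level of the brightest probe of each gene above or below its array's 75th percentile (vertical axis) in the 6 groups, 1 point per array and a line at the mean of 4 arrays, with open points for probes not well above background. In the newborn, the ductus points of CXCR4 (-1.87 to -0.55) and CD86 (-3.27 to -2.02) lie above all aorta points (-3.84 to -3.02 and -4.36 to -3.37), and the 4 newborn ductus points of CLEC7A are all open.

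CD86, the costimulatory ligand of antigen-presenting cells, was 2.55-fold higher in the newborn ductus than in the newborn aorta. Its brighter probe (A_70_P030341) was well above background on all 24 arrays. In the newborn ductus its level was -2.02, -3.27, -2.23 and -2.24 in replicates 1 to 4. In the newborn aorta it was -3.82, -4.36, -3.37 and -3.63. Every newborn ductus array was above every newborn aorta array, with ductus replicate 2 the closest to the aorta. The difference was 1.35 ± 0.34 on the log2 scale (SE of the fit, 95% interval 0.65 to 2.05, limma adjusted p = 0.0139). It lost its call without newborn ductus replicate 1 (1.21, limma adjusted p = 0.053), with normexp background correction (0.72, limma adjusted p = 0.175) and in a fit of the newborn groups alone (limma adjusted p = 0.0739).

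Before birth the levels of CD86 in the 2 vessels overlapped. In the preterm ductus they were -4.04, -4.70, -3.79 and -3.39, and in the preterm aorta -4.30, -4.70, -4.18 and -3.43. In the near-term ductus they were -2.72, -3.55, -3.09 and -3.23, and in the near-term aorta -3.91, -3.05, -3.02 and -2.99. The ductus minus aorta difference was 0.18 ± 0.34 in the preterm (95% interval -0.53 to 0.88) and 0.09 ± 0.34 near term (limma adjusted p = 0.822 and 0.959). In the ductus the level was 0.83 above the preterm value near term and another 0.71 higher in the newborn, and neither step was called (limma adjusted p = 0.356 and 0.143). The aorta was 0.91 higher near term than preterm and 0.55 lower in the newborn than near term (-0.55), again without a call (limma adjusted p = 0.298 and 0.389). The change at birth in the ductus minus that in the aorta was 1.26 ± 0.48 and was not called (limma adjusted p = 0.45).

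The second CD86 probe (A_70_P030342), from the same RefSeq transcript, was well above background on 18 of 24 arrays and did not show the newborn difference. Its newborn ductus levels were -4.01, -5.79, -4.84 and -4.38, of which the second was not well above background. Its newborn aorta levels were -4.92, -7.72, -5.05 and -3.31, again with the second not well above background. These ranges overlapped, and the difference was 0.49 ± 0.81 (limma adjusted p = 0.679). Across the 24 arrays, which share stage, vessel and detection limit, the pair correlated at r = 0.44.

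CD86 acts with 8 other genes in the list of T cell costimulation, of which 5 were measured. A list gene is called measured where a tested probe carried its symbol. CD40, the receptor of antigen-presenting cells for T cell help, was 4.25-fold higher in the newborn ductus than aorta (2.09 ± 0.48, limma adjusted p = 0.009), a call lost in a fit of the newborn groups alone (limma adjusted p = 0.125) and over low-limit arrays (2.59, limma adjusted p = 0.0737). It was 3.97-fold higher in the newborn than in the near-term ductus (1.99 ± 0.48, limma adjusted p = 0.0112), which was not called over low-limit arrays (2.07, limma adjusted p = 0.145). CTLA4, an inhibitory T lymphocyte receptor of CD86, differed by -2.24 ± 1.21 between the newborn vessels without a call (limma adjusted p = 0.211). CD28, the activating receptor, had a mean at least 1.05-fold lower in the ductus, also without a call (limma adjusted p = 0.232). CD80, the other ligand of these receptors, CD28 and CD40LG were well above background on 0 of 4 newborn ductus arrays. In all, 2 of 6 measured costimulation genes were called, both higher, with a list median of -1.44.

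CLEC7A, the beta-glucan receptor of phagocytes, had a mean at least 3.77-fold lower in the newborn ductus than in the near-term ductus. This bound allows for dim signals and not for the error of the fit. Its only probe (A_70_P008201) was well above background on 17 of 24 arrays. In the newborn ductus the level was -5.51, -5.57, -5.45 and -6.37, with no array well above background. In the near-term ductus it was -2.31, -4.60, -2.63 and -5.15, with 3 arrays well above background. The groups did not overlap, and the near-term ductus arrays fell into a high and a low pair. The fitted difference was -2.05 ± 0.65 (95% interval -3.40 to -0.71, limma adjusted p = 0.0451).

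CLEC7A had its highest group means in the near-term and the preterm aorta. The preterm aorta gave -4.27, -3.35, -3.22 and -2.98, and the preterm ductus -4.67, -6.34, -5.14 and -4.32, with the second ductus array not well above background. Every preterm aorta array was above every preterm ductus array, but the difference of -1.66 ± 0.65 (3.17-fold) was not called (limma adjusted p = 0.319). The near-term aorta gave -3.32, -3.09, -1.60 and -3.59, which overlapped the near-term ductus (-0.77, limma adjusted p = 0.928). The newborn aorta gave -4.75, -5.42, -4.24 and -2.71, with the second array not well above background. The newborn ductus mean was at least 2.46-fold lower than the newborn aorta mean, again with no overlap and no call (-1.44 ± 0.65, limma adjusted p = 0.149). In the aorta the newborn was 1.38 below near term (-1.38, limma adjusted p = 0.237), and the difference between the vessels in the change at birth was -0.68 (limma adjusted p = 0.872).

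The level of CLEC7A moved with the detection limit of the arrays, at r = 0.828 over 24 arrays that share stage and vessel. The near-term ductus replicates 1 and 3, which were high, had limits of 2.554 and 2.436, and replicates 2 and 4, which were low, had 1.019 and 0.444. The 4 newborn ductus arrays had limits from 0.5795 to 0.9019. Over arrays with a limit under 1.5 the difference from the near-term ductus was -0.85 (limma adjusted p = 0.252), and with the limit as a covariate, chosen after seeing the data, it was -1.16 (limma adjusted p = 0.0694). The call was also lost without near-term ductus replicate 1 (-1.60) or 3 (-1.71), without any 1 of the 4 newborn ductus replicates (-2.14 to -1.84), and with quantile scaling (-0.97, limma adjusted p = 0.093).

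Of a list of 9 genes drawn up around dectin-1, 4 were measured: CLEC7A itself, TLR2, NFKB1 and MYD88. The listed genes SYK, CARD9, BCL10, MALT1 and PLCG2 had no tested probe under their symbols. Since 13550 of the 15008 probes had no symbol, the array may still hold probes for them. TLR2, a receptor for bacterial lipoproteins on phagocytes, was 2.49-fold higher in the newborn ductus than aorta (1.31 ± 0.33, limma adjusted p = 0.0147), a call lost without newborn ductus replicate 4 (1.11, limma adjusted p = 0.0584), with normexp (0.85) and in a fit of the newborn groups alone (limma adjusted p = 0.11). NFKB1, a transcription factor of inflammatory genes, differed by 0.75 ± 0.52, and MYD88, the adaptor of TLR2, by -0.35 ± 0.64 (limma adjusted p = 0.306 and 0.711). Thus 1 of 4 genes of the list was called in the newborn vessels, higher, with a median of 0.20, and 1 of 4 across birth in the ductus, CLEC7A itself, with a median of 0.16.

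CYBB, the catalytic subunit of the phagocyte oxidase, was lower on every newborn ductus array than on any near-term ductus array. Its brightest probe (A_70_P068061) was well above background on all 24 arrays. In the newborn ductus the level was -2.38, -3.56, -2.12 and -2.05, and in the near-term ductus -1.35, -0.77, -1.11 and -1.93. The arrays nearest to each other were near-term replicate 4 and newborn replicate 4. The difference was -1.23 ± 0.42 (2.35-fold) and missed the threshold (limma adjusted p = 0.0652). The probe passed it without near-term ductus replicate 4 (-1.45, limma adjusted p = 0.0391).

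Of the other CYBB probes, A_70_P021812 was called for the same comparison. Its near-term ductus levels were -4.32, -4.15, -3.49 and -4.74, and its newborn ductus levels were -5.89, -7.41, -5.43 and -5.19, of which only the last was well above background. The groups did not overlap, and the difference was -1.80 ± 0.50 (3.49-fold, limma adjusted p = 0.024). Probe A_70_P021811 differed by -1.24 ± 0.53 (limma adjusted p = 0.119). The 3 probes correlated with each other at r = 0.74 to 0.897 over the 24 arrays. The call of A_70_P021812 was lost without near-term ductus replicate 3 (-1.58), newborn ductus replicate 1 (-1.83) or newborn ductus replicate 2 (-1.33), with quantile scaling (-0.22), and over arrays with a limit under 1.5 (-1.54).

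Between the vessels no CYBB probe was called at any stage. The preterm ductus levels of the brightest probe were -1.10, -1.48, -1.56 and -3.14, and those of the preterm aorta -2.08, -1.44, -2.36 and -2.03. The near-term aorta had -1.80, -1.47, -1.54 and -2.21, and the newborn aorta -2.42, -2.12, -2.53 and -1.05. Ductus and aorta overlapped at each stage. The ductus minus aorta difference was 0.16 preterm, 0.46 near term and -0.50 ± 0.42 in the newborn (95% interval -1.38 to 0.39; limma adjusted p = 0.878, 0.928 and 0.404). The change at birth differed between the vessels by -0.96 ± 0.60 (limma adjusted p = 0.794). CYBA, the membrane partner of CYBB, differed by 0.25 ± 0.22 between the newborn vessels and by -0.39 ± 0.22 across birth in the ductus (limma adjusted p = 0.413 and 0.187). RAC1, a small GTPase that can activate the oxidase, differed by -0.19 ± 0.16 and 0.17 ± 0.16 in the same comparisons (limma adjusted p = 0.408 and 0.467), so that 0 of 3 measured oxidase genes were called in either, where 0 and 1 of 3 passed an unadjusted p under 0.05.

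**Figure D2:**
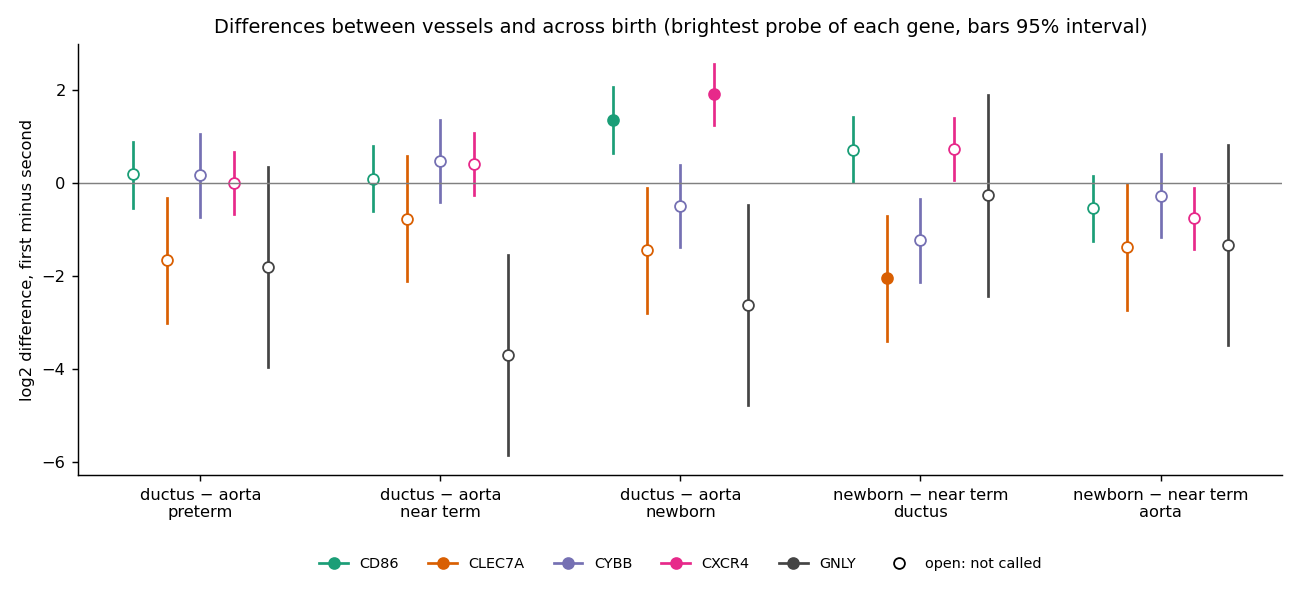
Log2 difference of the brightest probe of each gene (vertical axis) in 5 comparisons, with bars for the 95% interval of the fit and filled points for calls. CXCR4 (1.90) and CD86 (1.35) are filled in the newborn ductus minus aorta and CLEC7A (-2.05) in the newborn minus near-term ductus; the widest intervals belong to GNLY.

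CXCR4, the CXCL12 receptor, was 3.73-fold higher in the newborn ductus than in the newborn aorta. Probe A_70_P016871 was well above background on all 24 arrays. In the newborn ductus its level was -1.87, -1.73, -0.55 and -1.48, and in the newborn aorta -3.33, -3.02, -3.84 and -3.05. The groups did not overlap, ductus replicate 3 was the highest and aorta replicate 3 the lowest. The difference was 1.90 ± 0.32 (95% interval 1.24 to 2.56, limma adjusted p = 0.000704). It stayed called without any single newborn array (1.61 to 2.05), and lost its call with normexp background correction (0.88, limma adjusted p = 0.0867).

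CXCR4 did not differ by a call between the vessels before birth. The preterm ductus gave -2.61, -2.13, -2.25 and -2.37 and the preterm aorta -2.73, -2.18, -2.08 and -2.38, which overlapped almost wholly (0.00 ± 0.32, 95% interval -0.66 to 0.66). The near-term ductus gave -1.95, -2.71, -1.63 and -2.28 and the near-term aorta -3.08, -3.02, -2.34 and -1.75, also with overlap (0.40 ± 0.32, limma adjusted p = 0.928). From near term to newborn the ductus mean was 0.73 higher and the aorta mean 0.76 lower (-0.76), and neither change was called (limma adjusted p = 0.122 and 0.175). The difference between these changes was 1.5 ± 0.45 (95% interval 0.56 to 2.43) and was not called (limma adjusted p = 0.249).

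The second CXCR4 probe (A_70_P016872), from the same expressed sequence, gave 2.54-fold higher levels in the newborn ductus (1.35 ± 0.41, limma adjusted p = 0.0422). Its newborn ductus levels were -2.71, -1.97, -0.90 and -1.58 and its newborn aorta levels -2.70, -2.69, -4.01 and -3.16. The groups met, since ductus replicate 1 was at the level of the highest aorta arrays. The pair of probes correlated at r = 0.872 over 24 arrays. This second call was lost without newborn aorta replicate 3 or 4 and without newborn ductus replicate 2, 3 or 4 (1.05 to 1.41), and with normexp (0.67) or low-limit arrays (0.90).

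Of 5 endothelial genes, SELP and NOS3 were also higher in the newborn ductus than aorta. SELP, the P-selectin that tethers leukocytes to activated endothelium and platelets, was 6.32-fold higher (2.66 ± 0.38, limma adjusted p = 0.000149), and NOS3, the endothelial nitric oxide synthase, 2.99-fold (1.58 ± 0.35, limma adjusted p = 0.00632), a call lost in a fit of the newborn groups alone (limma adjusted p = 0.0717). KDR, a receptor of vascular endothelial growth factor, differed by 0.45 and TIE1, an orphan endothelial receptor, by 0.43 without a call (limma adjusted p = 0.225 and 0.41), and TEK, an angiopoietin receptor, was well above background on 0 of 4 newborn ductus and 2 of 4 newborn aorta arrays (limma adjusted p = 0.222). The median of the 5 was 0.45. The summed signal of the 5 was 2.17, 2.58 and 2.99 times the 75th percentile (lowest, median, highest) in the newborn ductus and 0.584, 0.776 and 1.28 in the newborn aorta. NOS3 and SELP had the highest means in the newborn ductus (0.56 and -0.58, beside -2.94 for KDR). The sum is thus not separate from their calls. Across birth SELP rose 8.05-fold in the ductus (3.01 ± 0.38, limma adjusted p = 3.73e-05). KDR fell 1.89-fold in the aorta (-0.92 ± 0.25, limma adjusted p = 0.0331), a call kept in 7 of 18 alternatives. The part of these endothelial genes in the CXCR4 result was not tested.

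Of the CXCR4 axis and chemokines, 2 of 4 measured genes were called between the newborn vessels, both higher in the ductus, with a median of 0.89. CXCL8, the neutrophil-attracting chemokine, was 2.56-fold higher (1.35 ± 0.32, limma adjusted p = 0.0109), a call lost with quantile scaling (1.43, limma adjusted p = 0.127), in a fit of the newborn groups alone (0.113) and over arrays with a limit under 1.5 (1.12, limma adjusted p = 0.13). It rose across birth in both vessels, 21.8-fold in the ductus (4.45 ± 0.32, limma adjusted p = 6.21e-08) and 7.99-fold in the aorta (3.00 ± 0.32, limma adjusted p = 8.23e-05), the latter not called in a fit of the 2 aorta groups alone (limma adjusted p = 0.125). MIF, a cytokine that binds CXCR4 among other receptors, differed by 0.43 ± 0.27, and CXCL10, an interferon-induced chemokine, by -1.93 ± 0.80 (limma adjusted p = 0.257 and 0.124). CXCL12 itself was not analysed here.

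GNLY, the granule protein of cytotoxic lymphocytes, had its highest means in the near-term and newborn aorta on its brightest probe, but no difference was called. The brightest probe (A_70_P050991, from RefSeq) was well above background on 16 of 24 arrays. The near-term aorta gave -0.54, -3.22, -0.27 and -1.78, and the near-term ductus -3.04, -6.64, -3.74 and -7.17, with ductus replicates 2 and 4 not well above background. The highest ductus array overlapped the lowest aorta array, and the difference was -3.70 ± 1.03 (13.0-fold, 95% interval -5.85 to -1.55, limma adjusted p = 0.102). The newborn aorta gave -3.55, -3.89, -2.58 and -1.17, and the newborn ductus -5.12, -5.91, -5.65 and -4.99, with ductus replicates 2 and 3 not well above background. All newborn aorta arrays were above all newborn ductus arrays, and the difference was -2.62 ± 1.03 (6.15-fold, limma adjusted p = 0.106).

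In the preterm, GNLY was at -6.93, -5.11, -4.72 and -2.79 in the aorta, with the first not well above background. In the preterm ductus it was at -4.39, -8.27, -8.02 and -6.12, where only the first was well above background. The preterm vessels overlapped (-1.81 ± 1.03, limma adjusted p = 0.509). In the aorta the near-term mean was 3.43 ± 1.03 above the preterm mean (10.8-fold, limma adjusted p = 0.181) and the newborn mean 1.34 below the near-term mean (-1.34, limma adjusted p = 0.493). In the ductus these steps were 1.55 and -0.27 (limma adjusted p = 0.582 and 0.87). The SD within a group reached 2.06 in the near-term ductus, the widest of any group for the brightest probes of the 5 genes.

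The level of GNLY also moved with the detection limit of the arrays (r = 0.578 over 24 arrays). Among arrays with a limit under 1.5, the near-term aorta had 1 array at -0.54 and the near-term ductus 2 at -6.64 and -7.17, and the difference was -6.36 (limma adjusted p = 0.00145), with the lone aorta array assumed to vary like the other groups. Above 1.5 the near-term aorta had -3.22, -0.27 and -1.78 and the near-term ductus -3.04 and -3.74. With the limit as a covariate the difference was -3.33 (limma adjusted p = 0.0227). In the newborn, the low-limit arrays gave -1.70 (limma adjusted p = 0.0197).

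The 4 GNLY probes did not give 1 answer. On the RefSeq probes the newborn aorta means (-2.80 and -2.98) lay above the preterm aorta means (-4.89 and -5.03). On A_70_P024302 the newborn aorta mean of -5.32 lay below the preterm aorta mean of -4.07. The other RefSeq probe (A_70_P050992) differed by -3.60 ± 1.00 near term and -2.98 ± 1.00 in the newborn, without overlap of the vessels at either stage and without a call (limma adjusted p = 0.102 and 0.0619). Probe A_70_P024302, from an expressed sequence tag, differed by -0.48 ± 0.52 and -0.26 ± 0.56 (limma adjusted p = 0.928 and 0.757), the latter without newborn aorta replicate 4, whose spot was left out as an outlier. Probe A_70_P024301, from the same tag, was well above background on 4 of 24 arrays and differed by -0.07 ± 0.78 and -1.35 ± 0.78 (limma adjusted p = 0.986 and 0.237), the latter with 0 of 4 newborn ductus arrays well above background. The RefSeq pair correlated at r = 0.978 and the tag pair at r = 0.787 over the 24 arrays, and across the pairs r was 0.422 to 0.649.

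**Figure D3:**
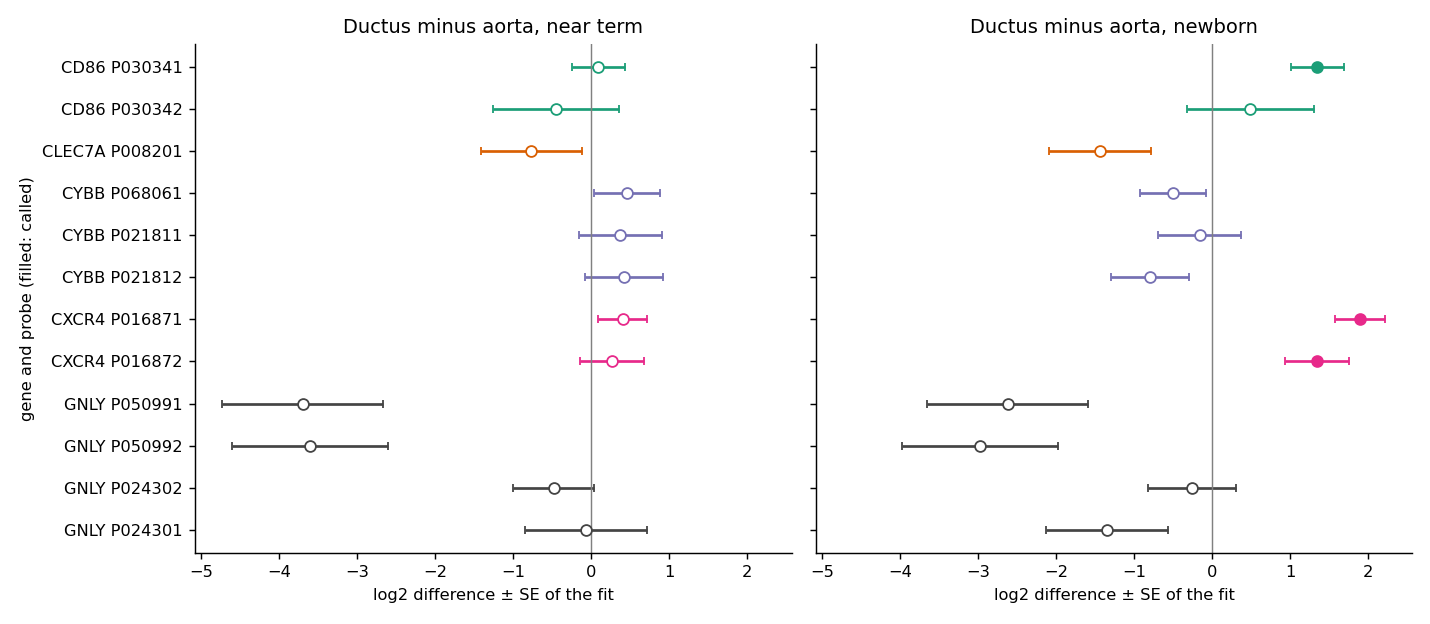
Log2 difference, ductus minus aorta, with the SE of the fit, for each of the 12 probes near term (left) and in the newborn (right), with filled points for calls. Both CXCR4 probes (1.90 and 1.35) and 1 of 2 CD86 probes (1.35 against 0.49) are filled in the newborn, and the 2 RefSeq probes of GNLY lie from -3.70 to -2.62 while the 2 tag probes lie from -1.35 to -0.07.

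The markers of leukocytes at large gave no call between the vessels. ITGB2, the beta subunit of leukocyte integrins, was the only gene of the 10 pan-leukocyte markers with a tested probe under its symbol. It was called in 0 of 9 comparisons and passed an unadjusted p under 0.05 in 1. Its newborn ductus minus aorta difference was 0.17 ± 0.23 (limma adjusted p = 0.611), and its signal was 0.592, 0.877 and 1.29 times the 75th percentile (lowest, median, highest) in the newborn ductus and 0.685, 0.764 and 0.839 in the newborn aorta. From preterm to near term it was 0.60 ± 0.23 higher in the aorta (limma adjusted p = 0.343) and 0.11 ± 0.23 higher in the ductus (limma adjusted p = 0.836).

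Of 18 macrophage and monocyte markers 8 were measured, 3 of them CD86, CLEC7A and CYBB. Between the newborn vessels 1 of 8 was called, CD86, with 5 of 8 above 0 and a median of 0.19. TYROBP, a signalling adaptor of myeloid receptors, differed by -0.73 ± 0.29, CD14, the lipopolysaccharide co-receptor, by 0.47 ± 0.21, and FCER1G, the common gamma chain of Fc receptors, by 0.38 ± 0.21 (limma adjusted p = 0.111, 0.149 and 0.221). ITGAM, an integrin of phagocytes, differed by 0.34 and lysozyme, LYZ, by 0.03. The summed signal of the 8 was 3.65, 4.85 and 5.88 times the 75th percentile in the newborn ductus and 3.47, 3.86 and 5.18 in the newborn aorta, which overlapped. Across birth in the ductus 1 of 8 rose and 1 fell, with a median of 0.26. CD14 rose 2.83-fold (1.5 ± 0.21, limma adjusted p = 0.000113) while CLEC7A fell. CD14 also rose in the aorta, 2.10-fold (1.07 ± 0.21, limma adjusted p = 0.00508), the single call there among the 8, lost with normexp (0.55), with median centring (1.30) and in a fit of the aorta groups alone (limma adjusted p = 0.168). MHC class II genes, which present antigen on such cells, were called in 0 of 3 cases between the newborn vessels (median 0.22) and across birth in the ductus (median -0.25), where 0 of 3 passed an unadjusted p under 0.05 in either.

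Of 16 T lymphocyte markers 8 were measured, and CXCR4 was the 1 call between the newborn vessels, against a list median of -1.14 with 2 of 8 above 0. CD5, a T and B lymphocyte receptor, was 2.03-fold higher in the ductus (1.02 ± 0.33, limma adjusted p = 0.0525). CD3D, CD4, CD28 and IL2RA were well above background on 0 of 4 newborn ductus arrays. In the newborn aorta they passed this mark on 3, 2, 2 and 1 of 4 arrays. CXCR4 and CD5 passed it on 4 of 4 newborn ductus arrays. CD3E and CD247, chains of the T cell receptor complex, were well above background on 4 of 4 newborn ductus arrays and differed by -0.92 ± 0.69 and -0.01 ± 0.29 (limma adjusted p = 0.343 and 0.975). Summed signal was 0.430, 0.565 and 0.901 times the 75th percentile in the newborn ductus and 0.261, 0.350 and 1.08 in the newborn aorta. CXCR4 is part of this sum and had the highest mean level of the 8 in both vessels (-1.41 and -3.31). The sum is thus not separate from the CXCR4 call. The newborn aorta arrays with a limit above 1.5 were 2 of 4 and the newborn ductus arrays 0 of 4, and the part of the limit in these counts was not tested. Across birth 0 of 8 were called in the ductus (median -1.42; 3 of 8 at an unadjusted p under 0.05) and 1 of 8 in the aorta, where CD247 fell 2.22-fold (-1.15 ± 0.29, limma adjusted p = 0.0231). That call was lost with normexp (-0.73), quantile scaling (-0.72) and median centring (-0.92), and without near-term aorta replicate 4 or newborn aorta replicate 1 or 2 (-1.08 to -0.96).

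Other lymphocytes were marked by few measured genes. IFNG, the interferon of T and natural killer cells, was the only measured cytotoxic marker besides GNLY. It was well above background on 0 of 4 newborn ductus and 2 of 4 newborn aorta arrays. Its mean was at least 1.08-fold lower in the ductus, without a call (limma adjusted p = 0.159). The B lymphocyte genes CR2, a complement receptor, and IGHM, the heavy chain of IgM, differed by 1.23 ± 0.90 and 0.92 ± 0.84 in the newborn (limma adjusted p = 0.332 and 0.434). Thus 0 of 2 cytotoxic and 0 of 2 B lymphocyte markers were called, with medians of -2.26 and 1.08; 2 and 0 passed an unadjusted p under 0.05.

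**Figure D4:**
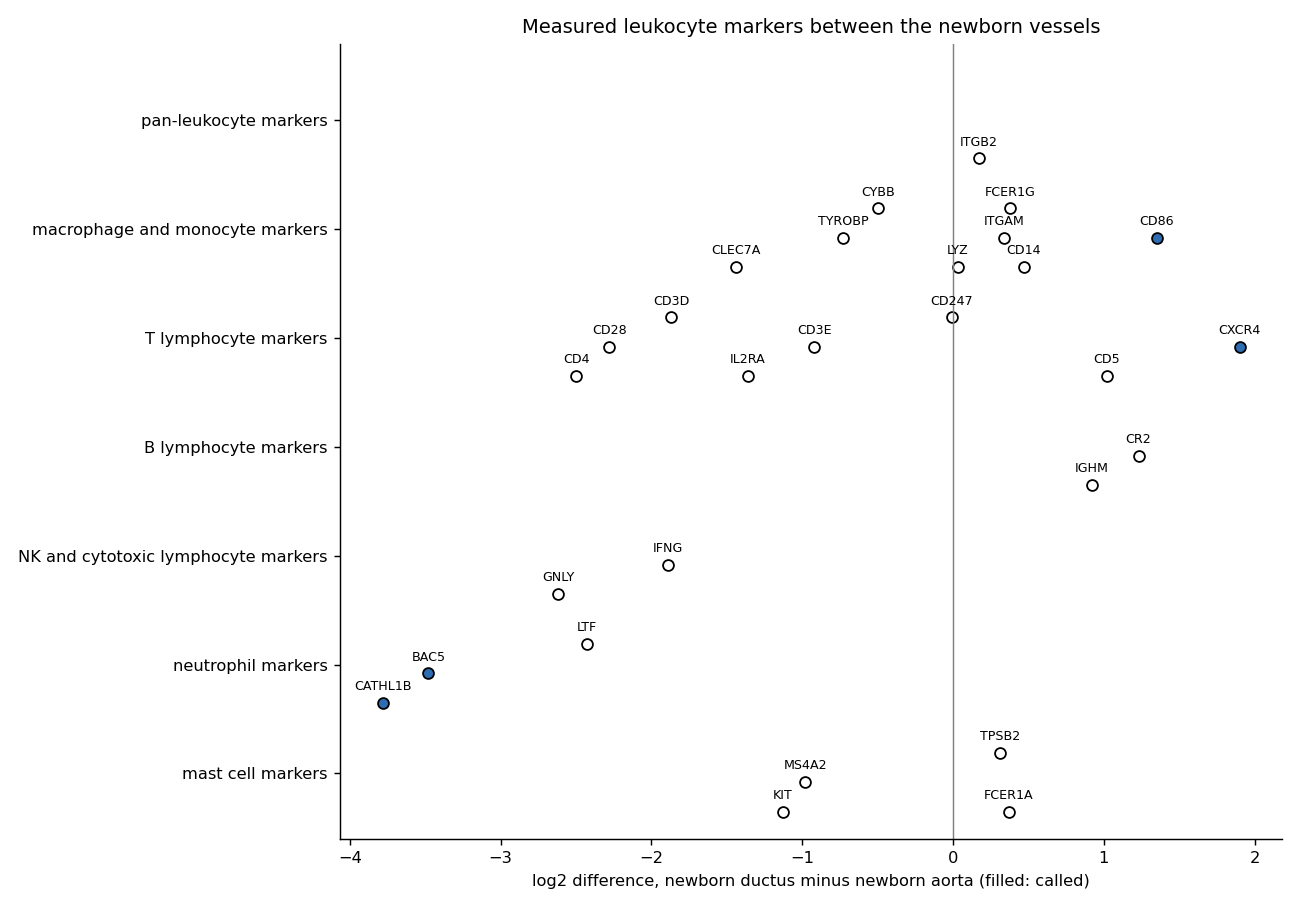
Log2 difference, newborn ductus minus newborn aorta (horizontal axis), of every measured marker of 7 leukocyte lists, with filled points for calls; the vertical spread within a list only separates the names. CXCR4 and CD86 are the 2 filled points above 0, BAC5 and CATHL1B the 2 below 0, and ITGB2 lies at 0.17.

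Neutrophil granule genes were lower in the newborn ductus than in the newborn aorta. The cathelicidins CATHL1B and BAC5, antimicrobial peptides of neutrophil granules, were 13.7-fold and 11.1-fold lower in the ductus (-3.78 ± 1.07 and -3.48 ± 1.08, limma adjusted p = 0.0292 and 0.0442). With them 2 of 3 measured neutrophil genes were called, with a median of -3.48. Each was well above background on 1 of 4 newborn ductus and 4 of 4 newborn aorta arrays, so both folds rest on dim ductus signals. Near term they differed by -3.36 and -3.04 without a call (limma adjusted p = 0.206 and 0.306). LTF, the granule protein lactoferrin, had a mean at least 3.36-fold lower in the newborn ductus, without a call (limma adjusted p = 0.104). The summed signal of the 3 was 0.0239, 0.041 and 0.172 times the 75th percentile in the newborn ductus and 0.243, 0.582 and 0.809 in the newborn aorta. GNLY, whose newborn ductus values also lay below those of the aorta without a call, tracked LTF at r = 0.811 and LYZ at r = 0.802 over the 24 arrays. The call of CATHL1B was lost without newborn aorta replicate 1, 2 or 4 or newborn ductus replicate 2, 3 or 4 (-3.93 to -3.23), and that of BAC5 without any newborn array but ductus replicate 1 (-3.87 to -3.23). Both were also lost with normexp (-1.71 and -1.56), quantile scaling (-2.55 and -2.33) and a fixed replicate block (limma adjusted p = 0.124 and 0.0966). That of CATHL1B was lost in a fit of the newborn groups alone too (limma adjusted p = 0.0698).

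Of 4 mast cell genes, TPSB2 and FCER1A fell across birth in the ductus and TPSB2 in the aorta. TPSB2, a mast cell tryptase, fell 4.44-fold in the ductus (-2.15 ± 0.27, limma adjusted p = 3.71e-05) and 2.39-fold in the aorta (-1.26 ± 0.27, limma adjusted p = 0.00859), and FCER1A, the alpha chain of the IgE receptor, fell 2.41-fold in the ductus (-1.27 ± 0.39, limma adjusted p = 0.0403). The median of the 4 in the ductus was -2.20. The aortic TPSB2 call was lost with median centring (-1.02, limma adjusted p = 0.152), in a fit of the 2 aorta groups alone (0.144) and over arrays with a limit under 1.5 (-1.51, limma adjusted p = 0.081). Near term TPSB2 exceeded its aortic level 2.31-fold in the ductus (1.21 ± 0.27, limma adjusted p = 0.0279), the only call among the 16 gene lists in that comparison, lost with median centring (1.30), in a fit of the 2 groups alone (limma adjusted p = 0.119), over arrays with a limit under 1.5 (1.34, limma adjusted p = 0.136) and without near-term aorta replicate 1, 2 or 3 or near-term ductus replicate 2, 3 or 4 (1.04 to 1.26). The FCER1A call was lost with median centring (-0.96), in a fit of the 2 groups alone (limma adjusted p = 0.146), over arrays with a limit under 1.5 (-1.68, limma adjusted p = 0.0848), with the limit as a covariate (-1.24, limma adjusted p = 0.0633) and without near-term ductus replicate 2, 3 or 4 or newborn ductus replicate 1 or 2 (-1.37 to -0.86). Between the newborn vessels 0 of 4 mast cell genes were called, with a median of -0.33 and 0 of 4 at an unadjusted p under 0.05.

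Genes on lists drawn up for other cell types and for plasma were called between the newborn vessels as well. The fibroblast list had 2 of 4 called, both higher in the ductus, with a median of 0.41: complement C3 by 2.61 ± 0.39 and decorin, DCN, by 1.28 ± 0.26 (limma adjusted p = 0.000271 and 0.00334). The collagen genes COL1A1 and COL3A1 went the other way without a call (-0.46 ± 0.31 and -0.78 ± 0.49, limma adjusted p = 0.29 and 0.268). The DCN call was lost in a fit of the newborn groups alone (limma adjusted p = 0.0734) and over arrays with a limit under 1.5 (0.94, limma adjusted p = 0.0553). Albumin, ALB, of the erythroid and plasma list (1 of 2 called, median -1.45), had a mean at least 7.03-fold lower in the ductus (limma adjusted p = 0.0319). The globin HBB differed by 1.00 ± 0.83 (limma adjusted p = 0.39). The ALB call was lost with normexp (-1.46) and without newborn aorta replicate 3 or 4 or newborn ductus replicate 1, 3 or 4 (-3.99 to -3.16). CNN1, a smooth muscle calponin, and MYLK, the myosin light chain kinase, differed by -0.14 and 0.02, 0 of 2 called with a median of -0.06 (0 of 2 at an unadjusted p under 0.05). Across birth C3 rose 2.62-fold in the ductus (1.39 ± 0.39, limma adjusted p = 0.0278), a call kept in 10 of 18 alternatives. CNN1 rose 1.78-fold in the aorta (0.83 ± 0.22, limma adjusted p = 0.029), a call kept in 9 of 18. The part of a shift in the cell make-up of the vessels in the CD86 and CXCR4 results was not tested, nor was the cell source of C3.

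The order of the group means differed from gene to gene. CD86 ran from -2.44 ± 0.56 (SD, n = 4) in the newborn ductus, through -3.15 in the near-term ductus, -3.24 in the near-term aorta, -3.79 in the newborn aorta and -3.98 in the preterm ductus, to -4.16 ± 0.53 in the preterm aorta. CXCR4 ran from -1.41 ± 0.59 (SD, n = 4) in the newborn ductus, through -2.14 near term and -2.34 preterm in the ductus, -2.34 preterm and -2.54 near term in the aorta, to -3.31 ± 0.38 in the newborn aorta. For these genes the newborn ductus stood first, whereas it stood last for CLEC7A (-5.72 ± 0.43, SD, n = 4) and CYBB (-2.53 ± 0.70, SD, n = 4). CLEC7A and GNLY stood first in the near-term aorta (-2.90 ± 0.89 and -1.45 ± 1.35, SD, n = 4) and CYBB in the near-term ductus (-1.29 ± 0.49, SD, n = 4). Neighbouring groups in the order of each gene overlapped in their single-array values.

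The named genes whose levels ran most like each member over the 24 arrays are given as a description, since the arrays share stage, vessel, slide and detection limit. For CD86 they were TLR2 (r = 0.826), the cortisol-regenerating enzyme HSD11B1 (0.801), the cytokine IL10 (0.793), the interferon-response factor IRF1 (0.786) and FCER1G (0.768), where the median over 794 named genes was 0.002 and the correlation with the detection limit 0.036. For CXCR4 they were NOS3 (0.793), the transcription factor FOS (0.782), the glucose transporter SLC2A3 (0.771), angpt2 (0.757) and the growth factor VEGFA (0.737), with a median of -0.114 and a correlation with the limit of -0.085. Over the 12 arrays with a limit under 1.5 these CD86 partners correlated at 0.791 to 0.902 and these CXCR4 partners at 0.745 to 0.892.

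For the other members the likeness was less specific to single genes. CLEC7A correlated with PAG5 at 0.951, GSTA1 at 0.947, TKDP3 at 0.941, SMAD1 at 0.936 and OMYHC2A at 0.936, but its median over all named genes was 0.495 and its correlation with the first principal component 0.924. GNLY followed LTF and LYZ, then MYOD1 (0.793), EPAS (0.792) and SFTPA1 (0.787), with a median of 0.439 and 0.68 with the first component. CYBB correlated with ANG-1 at 0.648, PPP1R12A at 0.611, MB at 0.609 and SST at 0.601, with a median of 0.26.

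**Figure D5:**
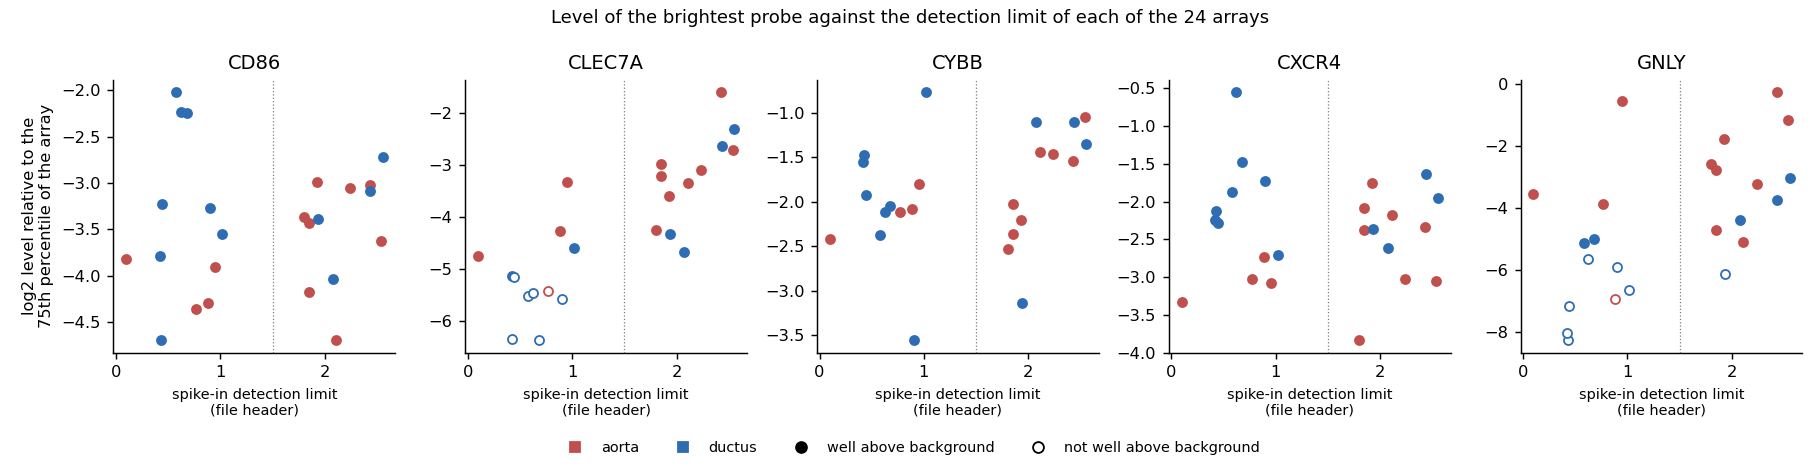
Log2 level of the brightest probe of each gene (vertical axis) against the spike-in detection limit of each of the 24 arrays (horizontal axis, from the file headers), with a dotted line at 1.5 and open points for probes not well above background. CLEC7A (r = 0.828) and GNLY (r = 0.578) run upward with the limit, while CD86 (r = 0.036) and CXCR4 (r = -0.085) do not.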

How the data were processed

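The measurements are spot intensity on a linear scale, background-subtracted and spatially detrended by the authors in Agilent's Feature Extraction software, version 9.5.3.1, per the file headers; any later normalisation is not given in the sources used here. Each of 24 arrays held 15744 spots, 15208 of them non-control, for 15008 probes. From the deposited intensities the log2 processed signal minus the 75th percentile of its array was computed, control spots and spots marked as outliers (2 to 124 per array) were left out, and spots of 1 probe were averaged. Precision is limited by the number of arrays. Among 276 array pairs 0 held identical values; correlations were 0.863 to 0.985 within and 0.821 to 0.981 between groups.

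Probes well above background on at least 4 arrays (13993) entered 1 fit of 6 group means by lmFit and eBayes in limma 3.58.1 under R 4.3.3, with two-sided p-values adjusted by Benjamini-Hochberg within each of 9 comparisons and called under 0.05. The script was tested on simulated data. A gene was represented by its probe with the highest mean log2 signal. With 0 arrays of a group well above background, a fold is "at least" the brighter mean over the dim mean, the latter taken from the higher of each dim array's floor and own signal. Such a bound concerns the means and does not allow for the error of the fit. Symbols came from the array's names and RefSeq names of assembly ARS-UI_Ramb_v3.0. They named 1458 of 15008 probes, and a list gene on an unnamed probe was not counted as measured.

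The named genes were all probes of the 5 members, every called gene of 16 marker lists and otherwise the 3 with the smallest p, and the 5 named genes correlating best with each member, of which 1 is not reported here; ITGAM, LYZ, TIE1 and some other list genes given beside them, and ITGB2 in every comparison, were added after their values were seen. The members and lists were chosen with earlier results of these data known. Each p-value sets a difference against the spread between samples within groups. That spread was estimated per probe over all 6 groups of 4 arrays and moderated by eBayes, not from the compared groups alone. Alternatives were normexp background, quantile and median scaling, other filters, fewer arrays, array weights, replicate blocks and other probes.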

Additional observations from a re-analysis of the deposited data

Results flagged for a closer look

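In 71 sets of 4 arrays of 1 probe and group, 3 held an array whose distance from its nearest neighbour, as a share of the whole range, was over Dixon's critical value at 95%, which chance passes in about 1 in 20 sets. CD86 (A_70_P030341) was at -3.91 on near-term aorta replicate 1, while the other 3 arrays lay between -3.05 and -2.99, and the spot was well above background. CLEC7A was at -6.37 on newborn ductus replicate 4 against -5.57 to -5.45 on the others, and none of these was well above background. CYBB (A_70_P021812) was at -6.64 on preterm ductus replicate 4, not well above background, against -4.76 to -4.52.

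The change of SELP at birth was 2.59 larger on the log2 scale in the ductus than in the aorta (limma adjusted p = 0.0314), which the test of the difference between the vessels called. Of the genes on the 16 lists, SELP was the only one so called. The call was lost with normexp (1.68), quantile scaling (2.42), in a fit of the groups compared alone (limma adjusted p = 0.141) and without 10 of 16 single arrays (2.36 to 2.68). Over low-limit arrays, with 1 near-term aorta array, the value was 3.13.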

How the results depend on the processing

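The newborn CXCR4 difference kept its direction under every alternative run and lost its call with normexp background (0.88, limma adjusted p = 0.0867) and with a fixed replicate block (0.11). That of CD86 lost it with normexp (0.72, 0.175), in a fit of the 2 groups alone (0.0739) and with the fixed block (0.0835). The near-term difference of GNLY was called with quantile scaling (-3.95, 0.00961) and the random block (0.0429). Leave-one-out apart, 38 recomputed values of called member probes kept the call and 17 lost it; of uncalled ones 442 kept their side and sign, 22 gained a call and 30 changed sign. For called list genes 200 kept and 61 lost it. Levels of CLEC7A and GNLY rose with the detection limit of the arrays (r = 0.828 and 0.578). The share of spots well above background was 94.4% at a limit of 2.436 and 66.2% at 0.444. The cause was not tested. With low-limit arrays the preterm and the near-term aorta have 1 array each, assumed to vary like the other groups. The limit covariate was chosen after seeing the data.

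Counts of the 5 genes called moved as follows. For the preterm ductus against aorta 2 were called with array weights. Near term it was 1 with quantile scaling, arrays of limit under 1.5, array weights, the random block and the limit covariate. In the newborn it was 0 with normexp or the fixed block 1 with the 2 groups alone and 3 with low-limit arrays. Between preterm and near term it was 3 in the ductus with array weights, and 1 in the aorta with quantile scaling, low-limit arrays, array weights or the covariate. Across birth in the ductus it was 2 with normexp or array weights and 0 with quantile scaling, the 2 groups alone or the covariate; in the aorta it was 1 with low-limit arrays or array weights. Low-limit arrays gave 1 for each of the 2 differences between the vessels.

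Counts over all probes also moved, in the order preterm, near-term and newborn ductus against aorta. They were 51, 46 and 868 with normexp, 57, 48 and 834 with median centring, 32, 36 and 378 with the 2 groups alone, 400, 938 and 869 with low-limit arrays and 1996, 802 and 2952 with array weights. The covariate gave 151 and 2464 for the preterm and newborn. Preterm to near term in the ductus gave 27 with normexp, 12 with median centring, 0 with the 2 groups alone or low-limit arrays and 4894 with array weights; in the aorta it gave 14 with median centring, 11 with the 2 groups, 251 with low-limit arrays and 1255 with array weights. Near term to newborn in the ductus gave 5467, 1013, 902, 615 and 7688 with normexp, median centring, the 2 groups, low-limit arrays and array weights; in the aorta it gave 178, 0, 1454 and 2628 with the last 4 of these. The difference at birth gave 33 with median centring, 141 with low-limit arrays, 273 with array weights and 94 with the covariate, and low-limit arrays gave 10 for the difference before birth. The cause of these shifts was not tested.

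Replicate numbers were tested as a pairing. The correlation of same-numbered ductus and aorta arrays ran from -0.586 to 0.821 over 12 pairs, with 6 over 0.1, and 6 of 12 aorta arrays correlated best with their own number, so not every pair was over 0.1 and the number was not used as a pairing. Same-numbered arrays of a stage share a slide row, and whether they share an animal was not settled by these values. The replicate block as a random effect (consensus correlation 0.179) gave 207, 274 and 2304 probes for the preterm, near-term and newborn ductus against aorta and 128 for the difference at birth; as a fixed term within a stage it gave 0, 0 and 15. Under that fixed term the newborn calls of SELP, C3, DCN, NOS3, CXCL8, CD40 and TLR2 were lost (limma adjusted p = 0.0678, 0.0869, 0.0895, 0.142, 0.159, 0.11 and 0.0952).

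Leaving out 1 array at a time gave 53 to 85 probes for the preterm, 73 to 153 for the near-term and 876 to 1649 for the newborn ductus against aorta, 11 to 71 and 19 to 52 between preterm and near term in the ductus and aorta, and 928 to 2274 and 458 to 1543 across birth. Of the 5 genes 0 to 1, 1 to 2 and 0 to 2 were called for the near-term vessels, the newborn vessels and across birth in the ductus. Uncalled differences that crossed 0 were, for the preterm vessels, CD86 (-0.02 to 0.42), CXCR4 (-0.13 to 0.09) and CYBB (-0.09 to 0.60), CD86 near term (-0.13 to 0.23), GNLY across birth in the ductus (-0.94 to 0.43) and, for the difference before birth, CD86 (-0.32 to 0.12) and CYBB (-0.14 to 0.55).

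No called value changed sign. Uncalled ones did so with array weights for CD86 (-0.04) and CXCR4 (-0.05) preterm, CLEC7A near term (0.07), GNLY at birth (-0.99) and CD86 (0.07), CYBB (-0.04) and GNLY (1.38) before it. With another probe they did for CD86 preterm (-0.60), near term (-0.45), across birth in the ductus (-0.51) and before birth (0.16), CXCR4 preterm (-0.39) and GNLY at birth (-1.27) and before it (0.61 and 0.33). CXCR4 between preterm and near term in the ductus gave -0.02, -0.06 and -0.31 with quantile scaling, median centring and low-limit arrays. Normexp gave -0.0045 for CD86 across birth in the ductus, 0.17 for CXCR4 in the aorta before birth and -0.02 for GNLY at birth. GNLY across birth in the ductus gave 1.11, 0.04, 1.49 and 0.97 with quantile scaling, median centring, low-limit arrays and the covariate. CLEC7A at birth gave 0.03 with quantile scaling and 0.91 with low-limit arrays, which before birth gave 0.46, -0.07 and -0.11 for CD86, CLEC7A and CYBB.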
